A study of Mus musculus with 6 samples.

Results

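The translation initiation factors described here are 10 genes, Eif4a1, Eif4e, Eif4g1, Eif4ebp1, Eif4ebp2, Eif2s1, Eif3b, Eif4b, Eif5a and Eif6, taken by gene name from the 38293 genes measured. All 10 had values high enough to test. RNA-sequencing was performed on 6 tumors from C57BL6 mice that all carried the Eμ-Myc transgene, in which an immunoglobulin heavy chain enhancer drives c-Myc in B-lineage cells. The 2 miR-146a-deficient tumors (Eμ-Myc miR-146a-/-, both alleles of the microRNA knocked out) came from the thymus at 11 and 10 weeks of age. Of the 4 miR-146a-sufficient tumors (Eμ-Myc miR-146a+/+), replicates 1 and 2 came from a neck node at 18 and 16 weeks and replicates 3 and 4 from the thymus at 10 weeks. Each tumor was dissociated into single cells and lysed whole, with no sort of the tumor cells. Tumor site and age therefore go together among the sufficient tumors, and both deficient tumors share a site with only 2 of the sufficient ones.

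Translation of most mRNAs starts when eIF4F, made of the cap-binding protein eIF4E, the scaffold eIF4G and the RNA helicase eIF4A, loads a ribosomal 43S complex at the 5′ cap. The 4E-BPs, encoded by Eif4ebp1 to Eif4ebp3, compete with eIF4G for eIF4E until the kinase mTORC1 phosphorylates them. eIF2 brings the initiator tRNA and eIF3 holds the complex together, while eIF5A, eIF4B and eIF6 act in elongation and termination, in helicase activity and in the supply of free large subunits. Several initiation factor genes, Eif4e among them, are described targets of Myc, and B-cell lymphoma in Eμ-Myc mice is known to depend on cap-dependent translation.

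Values are described as RPKM, which divides reads by gene length and by sequencing depth. Levels are compared between genes on that definition. How counts became RPKM is not stated. The highest Xist value given below is too high for that definition in so long an RNA, so the definition does not hold for every value. For the other genes it was not checked. Depth per tumor is not known, so values come without counting intervals. Summed over all genes, RPKM came to 714062 and 1932930 in the deficient pair and lay between 675516 and 788919 in the sufficient tumors. The highest sum is that of deficient replicate 1, in which Xist, the RNA of the inactive X, is listed at 1240070 RPKM against 1585 to 2203 in the other 5 tumors. Both deficient mice are labelled female and the 4 sufficient mice male, but deficient replicate 2 goes against its label. Its Ddx3y level, from the Y chromosome, was 24.6 RPKM, against 0.13 in deficient replicate 1 and 17.9 to 23.0 in the sufficient tumors. The microRNA gene, Mir146, is listed at 0 in all 6 tumors and cannot check the genotype. Labelled sex and genotype cannot be told apart. None of 10 B cell markers was at 0 throughout, and they had summed levels of 1516 to 2572 RPKM in deficient tumors and 1545 to 2295 RPKM in sufficient tumors.

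The mature microRNA that the deficient mice lack is shown because its seed, bases 2 to 8 in capitals, is the part for which matches were searched. The sequence is that of RefSeq, from chr11:43374435-43374456 of GRCm38.p6, minus strand.
mmu-miR-146a-5p: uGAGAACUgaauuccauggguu
A perfect match to these 7 bases was found in the longest annotated 3′UTR of 0 of the 10 genes. Among tested genes with an annotated 3′UTR, 13.2% of 10732 had 1 or more. Shorter matches and sites outside that 3′UTR were not searched.

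Because Myc binds the E-box CACGTG together with its partner Max, the promoter windows were searched for those letters, which read alike on both strands. RefSeq windows of GRCm38.p6 reach from 250 bases before to 50 bases after a transcription start and were held for 8 of the 10 genes, in 14 windows. The motif stood in a window of 4 of the 8 genes, Eif4a1, Eif4e, Eif4g1 and Eif5a, against 8.09% of all 27025 genes with a window. By window it was 6 of 14 against 7.15% of 32851, and some Eif5a windows overlap. The background holds genes whether tested or not, while the factors are abundant mRNAs, so the shares are not like for like. Stretches from 3 of the 4 genes with the motif, outside annotated UTRs, are shown. They read 5′ to 3′ on the gene's strand, with the motif in capitals. They lie 189, 54 and 74 bases before the transcription start of their window, in that order. The Eif4g1 and Eif5a stretches lie within the gene coordinates given below, so their starts are not the outermost ones. The Eif5a motif also stood in another, overlapping window of that gene. The stretches are on chr11:69672580-69672639 (minus strand), chr16:20672646-20672705 (plus strand) and chr11:69921428-69921487 (minus strand).
Eif4a1: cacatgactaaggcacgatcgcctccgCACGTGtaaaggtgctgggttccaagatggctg
Eif4g1: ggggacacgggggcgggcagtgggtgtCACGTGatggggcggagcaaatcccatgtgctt
Eif5a: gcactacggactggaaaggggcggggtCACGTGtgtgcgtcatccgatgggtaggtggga
A match describes letters only and was not tested as a binding site in these tumors.

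By listed RPKM, the 10 factors were among the more abundant mRNAs of the tumors. Averaged over the 6 tumors, each lay above 87.9% or more of the 12751 tested genes, a tested gene being one that reached 0.5 RPKM in 2 or more tumors. Eif5a had the highest mean level at 706 ± 85.5 RPKM (SD, n = 6). Eif4b, at 280.0 ± 10.9, was below Eif5a and above Eif3b in every tumor. Eif3b at 210.4 ± 30.4 and Eif4a1 at 194.9 ± 30.5 overlapped in range, and both exceeded every factor named after them in all 6 tumors. From there down the order was Eif2s1 at 94.9 ± 10.1, Eif4g1 at 92.7 ± 17.0, Eif4e at 80.8 ± 14.9, Eif4ebp2 at 70.3 ± 19.5, Eif4ebp1 at 56.7 ± 3.07 and Eif6 at 47.0 ± 9.02 RPKM. Each of these neighbors overlapped in range, so their order was not fixed from tumor to tumor.

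Most of the factors varied little between tumors in RPKM as listed, without scaling between tumors. Summed RPKM without Xist ran from 673931 to 787151 over the 6 tumors, and coefficients after scaling were not computed. Eif4b had the smallest coefficient of variation, 3.89% over the 6 tumors, and Eif4ebp1 followed at 5.41%. Eif4ebp2 had the largest, 27.7%. For 9 of the 10 genes the coefficient was below 21.0%, the median of the 1538 tested genes whose mean level was at least that of Eif6.

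**Figure D1:**
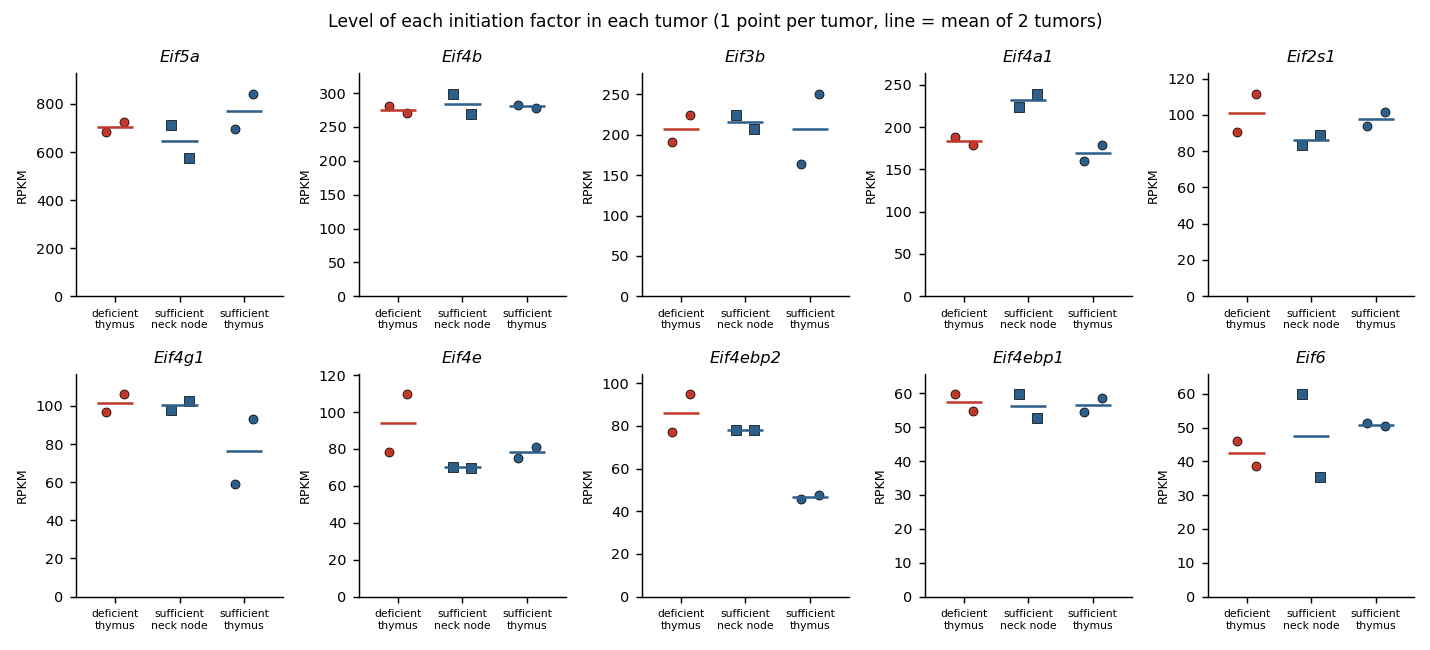
RPKM of each initiation factor in each tumor, 1 point per tumor, with genes ordered by mean level. Red circles are the 2 deficient thymic tumors, blue squares the 2 sufficient neck node tumors and blue circles the 2 sufficient thymic tumors, and the line is the mean of each pair. Eif4ebp2 was at 45.9 and 47.4 RPKM in the sufficient thymic tumors and at 77.3 or above in the other 4, while Eif4b stayed between 269 and 299 RPKM in all 6.

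The first comparison asked whether loss of miR-146a went with a different level of any initiation factor. It did not at the adjusted threshold: 0 of the 10 factors were past 0.05 after adjustment in limma, a test that pools the spread of all genes, and the background share was 0.0627% of 12751 genes. At an unadjusted p under 0.05 the count was also 0 of 10, against 3.62% of all genes. In 0 of the 10 did the deficient and sufficient tumors fail to overlap, where 11.2% of all genes had non-overlapping groups. The log2 fold change, taken on log2(RPKM + 1), was positive for 6 of 10 (67.6% of all genes), with a median of 0.01 beside 0.13 for all tested genes. Median-ratio scaling between tumors took the median of all genes to 0.00 and that of the 10 to -0.14. The 95% intervals of the 10 reached from -0.75 to 1.16, so 2 against 4 tumors leave room for changes of those sizes.

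Among the eIF4F subunits, Eif4e, which encodes the cap-binding protein (chromosome 3, 138526179 to 138559696, plus strand), was 78.2 and 109.9 RPKM in the deficient tumors. It was 70.4 and 69.8 in the neck node and 75.1 and 81.3 in the thymic sufficient tumors. Deficient replicate 2 lay above every other tumor, while deficient replicate 1 lay among the sufficient ones. On the log2 scale the fold change was 0.32 (95% interval -0.16 to 0.80, adjusted p = 0.893 from limma). It was 0.56 without deficient replicate 1 and 0.08 without deficient replicate 2, so the size rested on a single tumor.

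Eif4g1, the scaffold that bridges eIF4E and eIF3 (chromosome 16, 20668313 to 20692884, plus strand), was 97.0 and 106 RPKM in the deficient tumors. The sufficient tumors held 98.0 and 103 in the neck node and 59.3 and 93.0 in the thymus. Sufficient replicate 3 stood low and the other 5 lay within 93.0 to 106 RPKM. The log2 fold change was 0.23 (95% interval -0.36 to 0.83, adjusted p = 0.893 from limma), and 0.05 without sufficient replicate 3.

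Eif4a1, the helicase that unwinds the 5′ leader (chromosome 11, 69666936 to 69672423, minus strand), was 188 and 179 RPKM in the deficient tumors, against 224 and 239.7 in the neck node and 160.1 and 178 in the thymic sufficient tumors. The deficient values fell between those of the 2 sites. The log2 fold change was -0.11 over all 6 tumors and 0.12 among the 4 thymic tumors (adjusted p = 0.935 and 0.875 from limma). Reads of this gene are uncertain in part, since the processed copy Eif4a-ps4 was listed at 61.0 and 58.1 RPKM in deficient and 53.8 to 78.7 RPKM in sufficient tumors, and 2 snoRNA genes each cover 3.3% of its exon bases.

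Of the 4E-BP genes in the set, Eif4ebp2 varied between tumors more than Eif4ebp1, with coefficients of variation of 27.7% and 5.41%. Eif4ebp2 (chromosome 10, 61428491 to 61452661, minus strand), the 4E-BP best known from neurons, was 77.3 and 95.04 RPKM in the deficient tumors. It was 78.1 and 78.0 in the neck node tumors and 45.9 and 47.4 in the thymic tumors of the sufficient group. Only the 2 sufficient thymic tumors were low, and the deficient range overlapped the neck node values. Between genotypes the log2 fold change was 0.50 (95% interval -0.16 to 1.16, adjusted p = 0.893 from limma), the largest of the 10 in this comparison.

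Eif4ebp1 (chromosome 8, 27260329 to 27276674, plus strand), the main substrate by which mTORC1 activity is read in many cells, was 59.8 and 54.8 RPKM in the deficient tumors. It was 59.8 and 52.7 in the neck node and 54.6 and 58.6 in the thymic sufficient tumors. All 6 values lay within 52.7 to 59.8 RPKM, and the log2 fold change was 0.02 (95% interval -0.40 to 0.44, adjusted p = 0.986 from limma). RNA levels do not show the phosphorylation of these proteins, which was not measured here.

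Eif4b, a stimulator of the eIF4A helicase (chromosome 15, 102073773 to 102097173, plus strand), was 280.3 and 271 RPKM in the deficient tumors, against 299 and 269 in the neck node and 282 and 279 in the thymic sufficient tumors. No group stood apart from another. Its log2 fold change was -0.03 (95% interval -0.49 to 0.42, adjusted p = 0.980 from limma).

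Eif2s1 encodes the alpha subunit of eIF2, whose phosphorylation slows initiation under stress (chromosome 12, 78861819 to 78887010, plus strand). It was 90.2 and 112 RPKM in the deficient tumors and 83.6, 88.9, 93.8 and 101 RPKM in the sufficient tumors, replicates 1 to 4. The 2 groups overlapped, with deficient replicate 2 the highest. Its log2 fold change was 0.13 (95% interval -0.32 to 0.58, adjusted p = 0.911 from limma).

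Eif3b, a core subunit of eIF3 (chromosome 5, 140419328 to 140443360, plus strand), was 191 and 225 RPKM in the deficient tumors. The sufficient tumors held 224 and 208 in the neck node and 164 and 251 in the thymus, so the lowest and the highest value both came from sufficient thymic tumors. Eif5a (chromosome 11, 69916714 to 69921958, minus strand), the substrate of hypusine modification, was 685 and 724 RPKM in the deficient tumors. It was 711, 577, 698 and 844 RPKM in sufficient replicates 1 to 4, which enclosed both deficient values. The log2 fold changes were -0.01 for Eif3b and 0.01 for Eif5a (adjusted p = 0.995 and 0.998 from limma).

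Eif6, which keeps the large ribosomal subunit from joining early (chromosome 2, 155819832 to 155826925, minus strand), was 46.1 and 38.7 RPKM in the deficient tumors. It was 60.0 and 35.3 in the neck node and 51.3 and 50.4 in the thymic sufficient tumors, so the 2 neck node tumors held the highest and the lowest value. Its log2 fold change was -0.19 (95% interval -0.75 to 0.37, adjusted p = 0.900 from limma). It was -0.068 without deficient replicate 2, -0.32 without deficient replicate 1, -0.091 without sufficient replicate 1 and -0.34 without sufficient replicate 2. An antisense gene, Gm16098, covers 5.11% of its exon bases, and the kit does not mark strand.

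**Figure D2:**
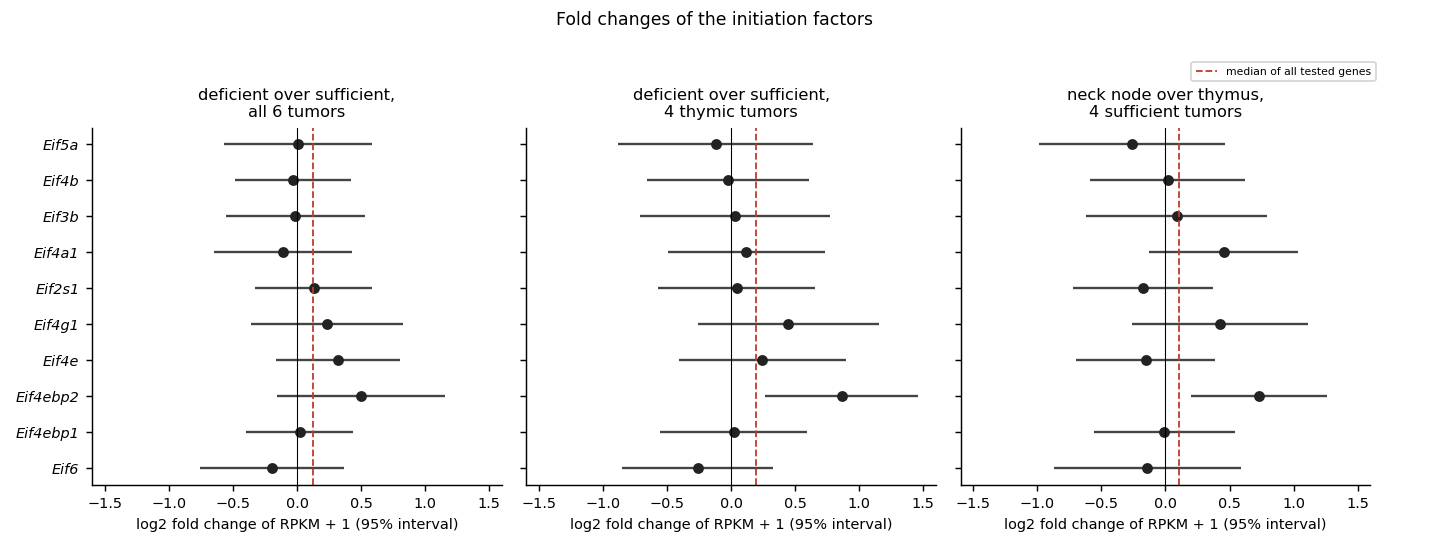
Log2 fold change of RPKM + 1 with its 95% interval from limma for each initiation factor, in deficient over sufficient tumors (all 6), deficient over sufficient thymic tumors (4) and neck node over thymic sufficient tumors (4). The dashed line is the median of all tested genes, 0.13, 0.19 and 0.10 in that order. The interval of Eif4ebp2 lies above 0 in the middle and right panels, and every other interval includes 0.

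Among the 4 thymic tumors, the genotypes were compared within a single site, with ages of 10 and 11 weeks. Of the 10 factors 0 passed the adjusted threshold, against 0.0244% of 12286 tested genes. Eif4ebp2 was the 1 gene at an unadjusted p under 0.05 (background 7.28%), at 77.3 and 95.04 RPKM in deficient and 45.9 and 47.4 RPKM in sufficient thymic tumors. Its log2 fold change was 0.86 (95% interval 0.27 to 1.46, adjusted p = 0.662 from limma). With tumor site as a covariate over all 6 tumors the adjusted p was 0.545 (limma). That fit gives the same 0.86 by construction, since both deficient tumors are thymic. Both deficient values were above both sufficient values for 3 of 10 genes, Eif4a1, Eif4ebp2 and Eif4g1, and below for 1, Eif6. Of all tested genes 32.5% were above and 10.5% below, so the shares for the 10 are near the background. In 2 against 2 tumors an exact two-sided permutation test cannot give a p under 0.333.

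The second comparison set neck node against thymus within the sufficient tumors, where site and age cannot be told apart. Again 0 of the 10 factors passed the adjusted threshold (background 0.155% of 12255 tested genes), and 1 was at an unadjusted p under 0.05 (background 7.87%). That gene was Eif4ebp2, at 78.1 and 78.0 RPKM in neck node tumors and 45.9 and 47.4 RPKM in thymic ones, with a log2 fold change of 0.73 (95% interval 0.20 to 1.26, adjusted p = 0.584 from limma). The spread within each site was 0.0906 and 1.02 RPKM (SD, n = 2 each). The value was 0.60 under median-ratio scaling and 0.71 to 0.75 when each tumor was left out in turn. This comparison and that among thymic tumors share the 2 low tumors, so they are not independent of each other.

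Eif4a1 also lay higher in both neck node tumors, at 224 and 239.7 RPKM against 160.1 and 178 RPKM in the thymus (log2 fold change 0.45, 95% interval -0.13 to 1.04, adjusted p = 0.668 from limma). Eif4g1 did so too, at 98.0 and 103 RPKM against 59.3 and 93.0 RPKM, with log2 fold change 0.43 (limma adjusted p = 0.709) that was 0.11 without sufficient replicate 3. Eif4e and Eif2s1 were lower in both neck node tumors, with log2 fold changes of -0.15 and -0.18 (adjusted p = 0.871 and 0.854 from limma). In all, 3 of 10 were above and 2 of 10 below without overlap, beside 27.9% above and 12.6% below among all tested genes. The other 5 overlapped between sites.

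Some markers of other cells passed the adjusted threshold between sites. The 8 neutrophil markers summed to 1636 and 1683 RPKM in the neck node tumors and 237 and 206 RPKM in the sufficient thymic tumors, with 6 of 8 past the adjusted threshold in limma. The 6 salivary gland markers summed to 76.9 and 71.8 against 0.31 and 0.54 RPKM, with 3 called. Between genotypes, 10 of 11 macrophage markers had a positive log2 fold change (summed level 279 and 378 RPKM in deficient and 151 to 319 RPKM in sufficient tumors). All 12 tested T and NK cell markers had a negative one (51.8 and 56.3 against 66.3 to 111 RPKM). The 5 tested erythroid markers were also negative (22.3 and 73.0 against 39.6 to 319 RPKM) and the 4 tested fibroblast markers positive (8.69 and 20.6 against 3.17 to 12.8 RPKM). No marker passed the adjusted threshold between genotypes in these lists (limma), and 67.6% of all tested genes had a positive value in that comparison. In deficient over sufficient tumors, all 8 neutrophil and all 5 tested salivary gland markers were negative, with median log2 fold changes of -1.69 and -1.34. The high sums of both lists were those of the neck node tumors, which are all sufficient. Neutrophil markers summed to 108 and 276 RPKM in the deficient thymic tumors, a range that includes both sufficient thymic tumors. The part of these cells in the levels of the initiation factors was not tested. In bulk RNA, fewer cells of a type and less RNA per cell cannot be told apart.

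Ratios within a tumor do not depend on scaling between tumors. The ratio Eif4ebp2/Eif4e, inhibitor mRNA over that of its target, was 0.99 and 0.86 in deficient tumors. It was 1.11 and 1.117 in the neck node and 0.61 and 0.58 in the thymic sufficient tumors. As for Eif4ebp2 itself, the 2 sufficient thymic tumors were low and the other 4 were not. The log2 ratio differed by 0.18 between genotypes (exact two-sided permutation p = 0.800, adjusted over 5 ratios 0.933) and by 0.90 between sites (exact permutation p = 0.333, the smallest that 2 against 2 tumors allow). Leaving out each tumor moved the genotype value between 0.021 (without sufficient replicate 4) and 0.33 (without sufficient replicate 2), and it was 0.63 among the thymic tumors.

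The ratio Eif4ebp1/Eif4ebp2 ran the other way, at 0.77 and 0.58 in deficient tumors, 0.77 and 0.68 in the neck node and 1.19 and 1.24 in the thymic sufficient tumors. The sufficient thymic tumors were the 2 in which Eif4ebp1 exceeded Eif4ebp2. The log2 difference was -0.48 between genotypes (exact permutation p = 0.400, adjusted 0.933) and -0.75 between sites (exact permutation p = 0.333, adjusted 0.417).

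The ratio Eif4ebp1/Eif4e was 0.76 and 0.50 in deficient tumors and 0.85, 0.75, 0.73 and 0.72 in sufficient replicates 1 to 4. Deficient replicate 2, where Eif4e was highest, was the lowest, and the log2 difference of -0.30 (exact permutation p = 0.533) was 0.01 without it. Eif4g1/Eif4e was 1.24 and 0.97 in deficient and 1.39, 1.47, 0.79 and 1.145 in sufficient tumors. Eif4a1/Eif4a2, the 2 helicase paralogs, was 2.01 and 1.92 in deficient and 2.78, 1.70, 3.14 and 1.93 in sufficient tumors, so Eif4a1 was the more abundant in all 6. None of the 5 ratios separated the genotypes, and with 2 against 4 tumors the exact test cannot give a p under 0.133.

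**Figure D3:**
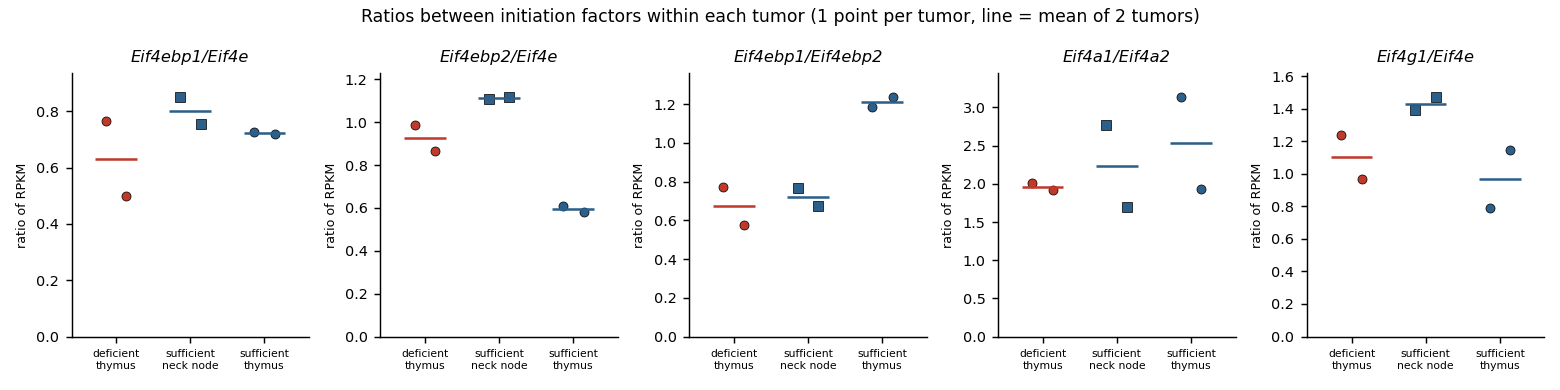
Ratios of RPKM between pairs of initiation factors within each tumor, 1 point per tumor, with the line at the mean of each pair of tumors. Red circles are deficient thymic, blue squares sufficient neck node and blue circles sufficient thymic tumors. Eif4ebp2/Eif4e was 0.61 and 0.58 in the sufficient thymic tumors and 0.86 to 1.117 in the other 4.

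The wider initiation machinery was examined through lists of 77 related genes, of which 76 were in the file and 75 were tested in each comparison. At the adjusted threshold 0 of 75 passed between genotypes and 0 of 75 between sites (limma). At an unadjusted p under 0.05 there were 0 of 75 between genotypes (3.62% of all genes) and 2 of 75 between sites (7.87% of all genes), 1 in each direction. Among the 4 thymic tumors there were 3 higher and 1 lower in the deficient group (7.28% of all genes), and again 0 passed the adjusted threshold. Between genotypes 45 of 75 had a positive log2 fold change, with a median of 0.07 beside 0.13 for all genes, and between sites 42 of 75, with a median of 0.07 beside 0.10. Of all tested genes 67.6% and 61% had a positive value in those comparisons, in that order.

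Of the 19 partners of eIF4F, Eif4ebp3, the least abundant 4E-BP, had the smallest unadjusted p between genotypes. It was 1.57 and 2.23 RPKM in deficient and 0.96, 1.45, 0.16 and 0.74 RPKM in sufficient replicates 1 to 4, so that the groups did not overlap (log2 fold change 0.71, adjusted p = 0.893 from limma). The sufficient thymic tumors were again the lowest, as for Eif4ebp2, though at levels near the filter. That order is not particular to 4E-BP genes. It also held for Eif4a1 and Eif4g1 and for related genes such as Larp1, Ppp1r15b, Eif3c and Dhx29. The share of all tested genes with it was not counted. Eif4g3, an eIF4G paralog, followed at 15.1 and 22.4 RPKM in deficient and 10.3 to 15.8 RPKM in sufficient tumors. Larp1, which binds mRNAs with a terminal oligopyrimidine tract, was 62.6 and 80.5 RPKM in neck node tumors, against 40.6 and 55.3 RPKM in thymic tumors (limma log2 fold change 0.57, adjusted p = 0.650). Pdcd4, an inhibitor of eIF4A, was 22.9 and 15.1 RPKM in neck node tumors, against 26.5 and 30.4 RPKM in thymic tumors (limma log2 fold change -0.58, adjusted p = 0.650).

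In the eIF2 list of 18 genes the smallest unadjusted p between genotypes was that of Ppp1r15a, the stress-induced subunit that directs dephosphorylation of eIF2 alpha. It was 5.93 and 4.50 RPKM in deficient and 2.74, 4.53, 2.56 and 2.26 RPKM in sufficient replicates 1 to 4, with an overlap through replicate 2 (log2 fold change 0.65, adjusted p = 0.893 from limma). The constitutive Ppp1r15b was 52.6 and 71.8 RPKM in neck node tumors, against 38.9 and 45.8 RPKM in thymic tumors. Eif2b5, a subunit of the exchange factor, was 63.3 and 40.1 RPKM in neck node tumors, against 70.3 and 82.3 RPKM in thymic tumors. Both had an adjusted p of 0.650 or more from limma.

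The gamma subunit of eIF2 is encoded on both sex chromosomes in mice. Eif2s3y, the Y-linked copy, was 0.24 and 24.1 RPKM in deficient tumors and 17.3, 22.0, 18.4 and 21.2 RPKM in sufficient tumors. The X-linked copy Eif2s3x was 78.7 and 52.8 RPKM in deficient and 56.5, 59.7, 46.8 and 61.2 RPKM in sufficient tumors. Deficient replicate 1 was thus near 0 for the Y copy and had the highest value of the X copy, and deficient replicate 2 resembled the sufficient tumors in both. Without deficient replicate 2, Eif2s3y passed the threshold with log2 fold change -4.06 (limma adjusted p = 0.00375), in a fit where the lone deficient tumor is assumed to vary like the sufficient ones. That call says no more than that this tumor held almost no Eif2s3y, and no other related gene passed under any alternative.

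Among the 13 eIF3 subunits other than Eif3b, log2 fold changes between genotypes ran from -0.44 to 0.28 with a median of -0.09, and 5 were positive. Eif3i was 108 and 80.5 RPKM in deficient and 129, 81.4, 141 and 169 RPKM in sufficient tumors, and Eif3f was 114 and 111 RPKM in deficient and 112, 93.7, 97.1 and 77.2 RPKM in sufficient tumors. Between sites Eif3c was 155 and 152 RPKM in neck node tumors, against 105 and 81.1 RPKM in thymic tumors (limma log2 fold change 0.72, adjusted p = 0.601), and Eif3h was 551 and 376 against 929 and 595 RPKM (log2 fold change -0.71, adjusted p = 0.666). Subunits of the same complex thus had differences of both signs, none past the threshold.

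The 11 scanning and subunit joining factors had a median log2 fold change of 0.10 between genotypes and 0.08 between sites. Eif5, the GTPase activator of eIF2, was 123 and 192 RPKM in deficient and 106 to 133 RPKM in sufficient tumors. Dhx29, a helicase for structured leaders, was 10.1 and 11.4 RPKM in deficient and 9.48, 9.49, 6.10 and 7.54 RPKM in sufficient tumors, without overlap and with log2 fold change 0.38 (limma adjusted p = 0.893). Eif1ax was 36.1 and 27.7 RPKM in neck node tumors, against 40.0 and 37.9 RPKM in thymic tumors. The enzymes that add hypusine to eIF5A, Dhps and Dohh, were 15.0 and 16.7 RPKM and 22.4 and 21.1 RPKM in deficient tumors, within their ranges in the sufficient tumors of 13.1 to 17.2 and 19.2 to 26.98 RPKM. The paralog Eif5a2 was 0.21 and 0.69 RPKM in deficient and 0.15 to 3.03 RPKM in sufficient tumors.

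Upstream of the 4E-BPs, Mtor was 10.6 and 10.8 RPKM in deficient tumors and 27.2, 16.9, 14.4 and 11.3 RPKM in sufficient replicates 1 to 4. Both deficient values were below all 4 sufficient values (log2 fold change -0.59, adjusted p = 0.893 from limma). Rps6kb1, which encodes S6 kinase, was 12.1 and 15.6 RPKM in deficient and 9.88 to 11.4 RPKM in sufficient tumors, also without overlap. Ddit4, an inhibitor of mTORC1 induced by stress, was 21.4 and 16.8 RPKM in neck node tumors, against 30.8 and 41.0 RPKM in thymic tumors, with log2 fold change -0.87 (limma adjusted p = 0.584). Of the 75 related genes 4 were above and 2 below without overlap between genotypes, where 9.15% of all genes were above and 2.09% below.

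Myc itself was 451 and 909 RPKM in deficient and 348, 472, 237 and 516 RPKM in sufficient tumors, with log2 fold change 0.77 (limma adjusted p = 0.893).

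**Figure D4:**
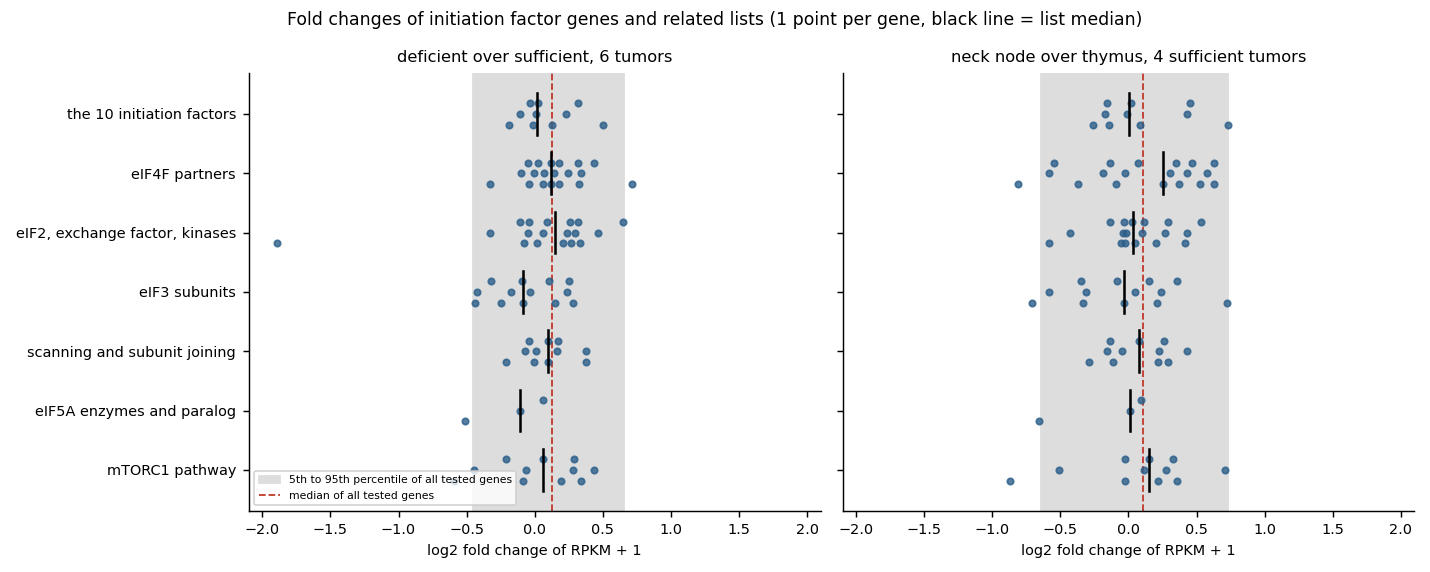
Log2 fold change of RPKM + 1 for each tested gene of the initiation factor set and 6 related lists, 1 point per gene, in deficient over sufficient tumors (left) and neck node over thymic sufficient tumors (right). Black lines are list medians, the dashed line is the median of all tested genes and the gray band holds their 5th to 95th percentile. The medians of the 10 factors were 0.01 and 0.00, beside 0.13 and 0.10 for all genes, and the point far to the left is Eif2s3y.

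The genes whose pattern over the 6 tumors was closest to each factor were found by the root mean square difference of centered log2(RPKM + 1), which gives a distance and no test. Eif4a1 was closest to its own processed copy Eif4a-ps4 (0.04) among 12751 genes, and Eif4g1 to Rnf31 (0.02). Eif4ebp2 was closest to Cnot3 (0.05), Eif4e to Nus1 (0.05) and Eif6 to Cct7 (0.07). Eif4b and Eif4ebp1, both nearly level, were each other's closest member at 0.05. Eif4e and Eif2s1, highest together in deficient replicate 2, were also each other's closest member, at 0.11. That is little below the 0.14 by which Eif2s1 differed from its own mean, so the likeness is slight.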

How the data were processed

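Libraries were unstranded single-end TruSeq, with 2 technical replicates per tumor. The authors aligned reads to GRCm38 (mm10, Ensembl annotation) with STAR 2.3.0 and counted them with HTSeq 0.5.4p3, leaving out rRNA and mitochondrial rRNA and tRNA genes, and tested the counts with DESeq. The submitters' processing notes name DESeq 1.12.1 and the study's methods another version. The deposited file holds 1 RPKM value per gene and tumor. How counts became RPKM is not stated, and whole reads could not be recovered, so depth is unknown and precision rests on the spread between tumors.

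Here, log2(RPKM + 1) of genes that reached 0.5 RPKM in 2 or more tumors was tested with limma 3.58.1 (trend) in R 4.3.3, with Benjamini-Hochberg adjustment over all tested genes and a threshold of 0.05. Ratios were tested with exact permutation tests in SciPy 1.17.1. Gene coordinates and 3′UTRs are from GENCODE M21. Named genes were the 10 factors, the genes past the threshold or otherwise the smallest 2 unadjusted p-values of each list and comparison, and Eif2s3x, Eif2s3y, Eif4a2, Myc, Xist and Ddx3y. Genes closest in pattern and cell type markers were also named. The members and lists were chosen with earlier results of these data known. Alternatives changed the filter, pseudocount, scaling, prior, tumors and covariates.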

Additional observations from a re-analysis of the deposited data

How the results depend on the processing

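None of the 10 factors passed an adjusted p of 0.05 in any of 18 alternatives for genotype or 13 for site (lowest adjusted p 0.432), and of 310 refitted fold changes 281 kept their sign and 29 did not. Refits that changed only the filter, the trend or the prior could not change a sign. The fits on thymic tumors only and with the site covariate gave the same genotype fold changes. The share that kept its sign is therefore not a measure of stability. The count of all genes called between genotypes was 8. It was 23 without a filter, 3 among the thymic tumors, 3 with the site of the tumor in the model and 4 to 9 when each tumor was left out. The count between sites was 19. It was 0 without a filter (limma, with 1685 genes at an unadjusted p under 0.05), 8 with median-ratio scaling, 11 with quantile normalization, 30 with the same sum without Xist and 11 to 67 when each tumor was left out.

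Genotype fold changes that changed sign were all small. Eif4a1 was 0.12 in thymic tumors only and with the site covariate, Eif3b 0.029 and Eif5a -0.12 in both. Under median-ratio scaling Eif4ebp1 was -0.13, Eif2s1 -0.021 and Eif5a -0.15. Under quantile normalization Eif4ebp1 was -0.038 and Eif4b 0.00085. With the same sum without Xist, Eif3b was 0.044 and Eif4b 0.025. Between sites, Eif4ebp1 was 0.12 with the same sum without Xist, and under median-ratio scaling Eif3b was -0.046 and Eif4b -0.12. When each tumor was left out, the genotype values ran from -0.039 to 0.084 for Eif4ebp1, -0.022 to 0.28 for Eif2s1, -0.13 to 0.11 for Eif3b and -0.086 to 0.096 for Eif5a. They kept their sign, from -0.21 to -0.017 for Eif4a1, -0.058 to -0.0049 for Eif4b, 0.078 to 0.56 for Eif4e, 0.35 to 0.65 for Eif4ebp2, 0.054 to 0.31 for Eif4g1 and -0.34 to -0.068 for Eif6. The site values ran from -0.10 to 0.081 for Eif4ebp1, -0.22 to 0.39 for Eif3b, -0.061 to 0.094 for Eif4b and -0.52 to 0.23 for Eif6. The log2 ratio Eif4ebp1/Eif4e ran from -0.61 to 0.0061 and Eif4g1/Eif4e from -0.28 to 0.089, and Eif4g1/Eif4e was 0.21 in thymic tumors only. The cause was not tested.

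Replicate numbers mark separate mice, so same-numbered tumors were not treated as pairs. They correlated at 0.02 and 0.21 in their deviations from the group means. The 2 deficient tumors deviate by equal and opposite amounts, so these values cannot settle whether tumors are paired. With a replicate block 1 gene was called in all, and 0 of the 10 factors. Depth is unknown, so counting error at low values, as in Eif4ebp3 and Eif5a2, was not estimated.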
